A study of Mus musculus with 6 samples.

Results

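Haemoglobin and erythroid genes were followed in mouse lung by taking every probe set of the array whose platform gene symbol starts with Hba- or Hbb-, or is Alas2, Slc4a1, Klf1, Ermap or Epor. This rule uses names and no measured value. It found 14 probe sets of the 12488 on each array, 11 with 1 gene symbol and 3 with several. Ermap had no named probe set and is not analysed here.

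Whole-lung RNA was measured on 6 Affymetrix arrays, 1 of smoke-exposed and 1 of control mice for each of ICR, DBA and C57. Exposed mice inhaled the smoke of 3 cigarettes daily, on 5 days a week over 4 weeks. The 6 groups are therefore ICR smoked, ICR control, DBA smoked, DBA control, C57 smoked and C57 control, each with 1 array labelled as mouse 1. ICR is an outbred stock, while DBA and C57 are names of inbred families whose substrain was not stated in the labels, nor were the age and sex of the mice or any pooling. With 1 array a group, a difference between the arrays of 1 strain has no replicate check, and p-values measure the spread between these 6 arrays.

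Adult haemoglobin is a tetramer of alpha-globin chains and beta-globin chains, each holding a haem group that binds oxygen. Mouse alpha-globin comes from the nearly identical genes Hba-a1 and Hba-a2, and beta-globin from a pair of adult genes that differ between inbred strains. The single haplotype, carried by C57BL/6, has Hbb-bs and Hbb-bt, and the diffuse haplotype, carried by DBA/2, has Hbb-b1 and Hbb-b2. Red cells of mammals have no nucleus but their youngest form, the reticulocyte, still holds globin messenger RNA, so blood in the vessels of a lung brings these transcripts into the tissue's RNA. In bulk RNA, fewer cells of a type and less RNA per cell cannot be told apart.

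Proximal promoters of the genes behind the brightest probe sets are shown because they carry the short elements that globin and haem-synthesis genes share. Each is the 250 bases before the transcript start in RefSeq (GRCm38.p6), 5′ to 3′ on the gene's own strand, with capitals marking matches to 4 short elements on either strand. One element is GATAA, which GATA factors such as GATA1 bind. Another is CACCC, which Kruppel-like factors such as KLF1 bind. The other two are CCAAT, the CAAT box, and the form ATATAA of the TATA box.
Hba-a1, chr11:32283422-32283671, plus strand: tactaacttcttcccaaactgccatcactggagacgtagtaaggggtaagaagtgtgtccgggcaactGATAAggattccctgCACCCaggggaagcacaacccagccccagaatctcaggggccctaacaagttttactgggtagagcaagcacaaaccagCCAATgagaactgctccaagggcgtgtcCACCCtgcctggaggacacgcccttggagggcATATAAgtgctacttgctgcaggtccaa
Hbb-bs, chr7:103827929-103828178, minus strand: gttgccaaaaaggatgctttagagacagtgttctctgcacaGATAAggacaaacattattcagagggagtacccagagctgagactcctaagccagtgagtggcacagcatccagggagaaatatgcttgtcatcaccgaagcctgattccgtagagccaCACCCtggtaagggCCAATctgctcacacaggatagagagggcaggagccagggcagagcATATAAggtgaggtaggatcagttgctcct
Hbb-bt, chr7:103813924-103814173, minus strand: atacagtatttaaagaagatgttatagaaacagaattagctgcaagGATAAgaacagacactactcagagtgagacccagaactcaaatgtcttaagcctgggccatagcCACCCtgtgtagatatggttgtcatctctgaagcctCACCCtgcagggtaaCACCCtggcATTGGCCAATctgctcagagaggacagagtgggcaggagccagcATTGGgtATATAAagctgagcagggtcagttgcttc
Alas2, chrX:150547167-150547416, plus strand: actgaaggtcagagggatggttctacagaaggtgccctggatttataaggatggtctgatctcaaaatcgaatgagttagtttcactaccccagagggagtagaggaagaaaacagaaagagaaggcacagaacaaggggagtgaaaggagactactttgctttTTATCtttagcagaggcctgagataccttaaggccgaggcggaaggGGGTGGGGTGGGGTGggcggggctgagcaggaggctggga

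All 3 globin promoters printed hold each of the 4 elements, a combination found in 0.466% of the 32851 mouse promoters of the same length searched. Singly, GATAA was in 22.6% of them, CACCC in 52.0%, CCAAT in 33.9% and ATATAA in 9.10%. The elements were picked as ones that globin genes share, so these shares are no test. Of the globin promoters not printed, Hba-a2 holds all 4, but Hba-x lacks CCAAT and Hbb-y lacks ATATAA. The ATATAA match begins 28 bases before the start in Hba-a1, 30 in Hbb-bs and 29 in Hbb-bt. Alas2 has 1 GATAA match and 3 CACCC matches in a row, and these letters of CCAAT and ATATAA are not in its window. No match to one element overlapped a match to another. The Hba-a1 promoter shares an unbroken run of 247 of 250 bases with that of Hba-a2, against a longest run of 14 between Hbb-bs and Hbb-bt. All 14 platform symbols matched RefSeq genes by identifier, and 9 of them had a promoter in the table. Hbb-b1 and Hbb-b2 were among those without one. The data hold no measurement of binding, and a match is a description of letters only.

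Globin transcripts were among the strongest signals of the lung arrays. Probe set 101869_s_at, annotated to the 4 adult beta-globin genes Hbb-bt, Hbb-bs, Hbb-b2 and Hbb-b1 (chromosome 7 in RefSeq) and called here the beta-globin set, read 7051 on ICR smoked against 7485 on ICR control, as deposited intensity on a linear scale. In DBA it read 9129 on smoked and 9818 on control, and in C57 8697 on smoked and 6652 on control. It ranked between 2 and 8 of 12488 on every array, last on C57 control. The highest of its 6 values was 1.48 times the lowest.

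Hba-a1 (probe set 94781_at, chromosome 11), the alpha-globin gene, read 6107 on ICR smoked and 7325 on ICR control, 7475 on DBA smoked and 8999 on DBA control, and 8229 on C57 smoked and 5673 on C57 control. It ranked 4 and 3 in ICR, 9 and 5 in DBA, and 5 and 19 in C57, smoked before control. The C57 control array was again the lowest. A second alpha-globin probe set, 162457_f_at, is annotated to Hba-a2 and Hba-a1 and cannot separate these near-copies. It read 1368 on ICR smoked and 1527 on ICR control, 1765 on DBA smoked and 1830 on DBA control, and 2157 on C57 smoked and 1760 on C57 control. Its lowest value was on ICR smoked, so both alpha-globin probe sets put a different array last.

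Hbb-b2 (probe set 103534_at, chromosome 7), annotated to the minor adult beta-globin of the diffuse haplotype alone, had another pattern. It read 2844 on ICR smoked and 4081 on ICR control, 3808 on DBA smoked and 4024 on DBA control, but 1816 on C57 smoked and 1256 on C57 control. All 4 ICR and DBA values lay above both C57 values, and the share of all probe sets with this order was not counted. Its rank was 29 and 24 in ICR, 97 and 72 in DBA, and 232 and 394 in C57. Hbb-b2 is closely related to the other adult beta-globin genes. How far the probes also take up their transcripts, and how far sequence differences under the probes affect the signal in each strain, was not tested.

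**Figure D1:**
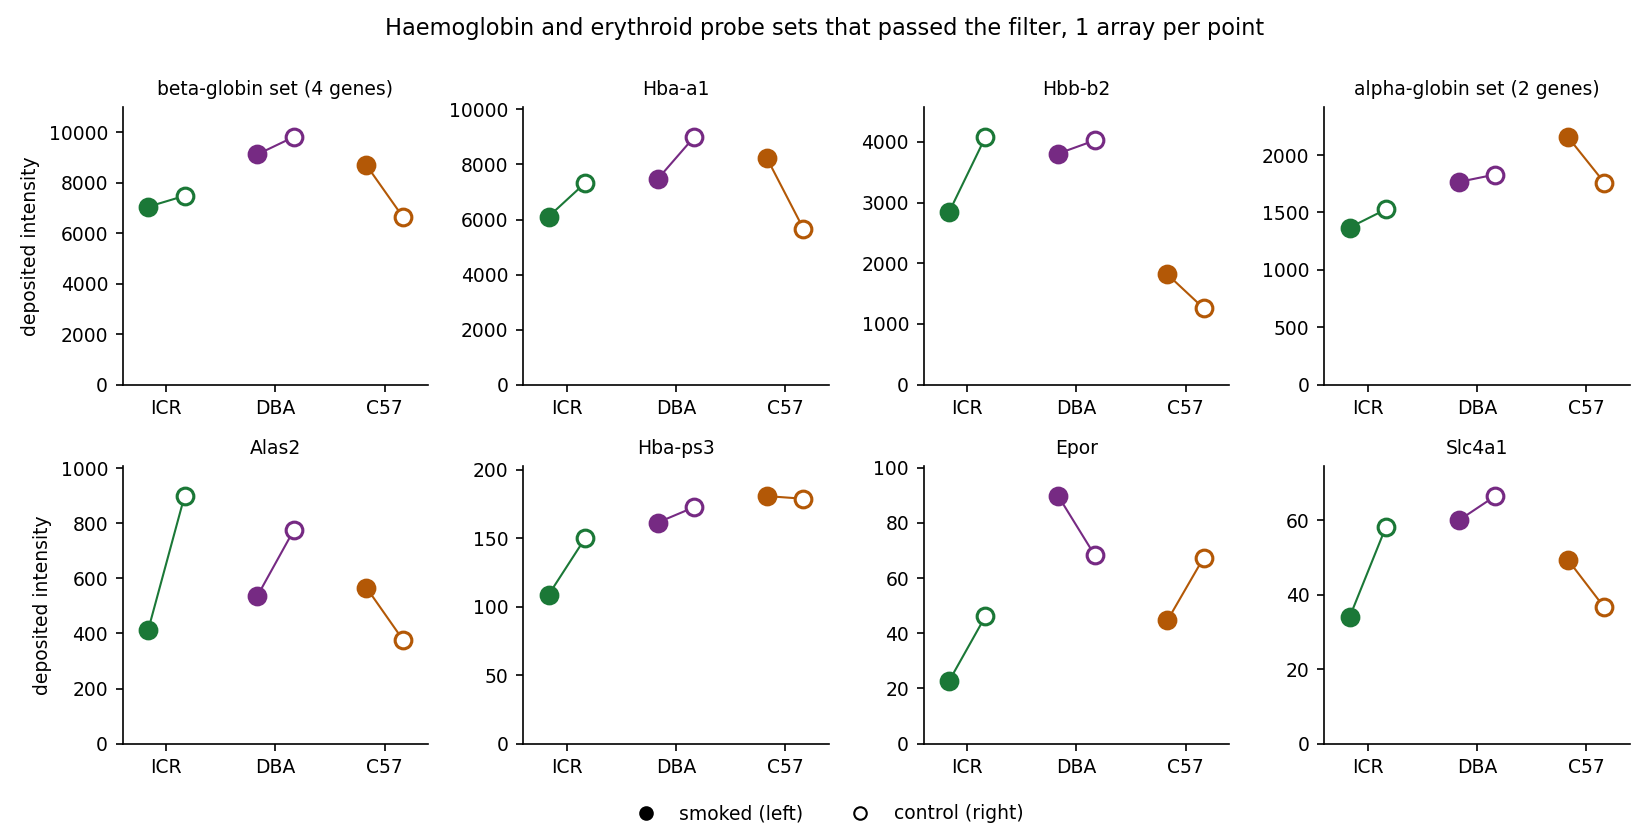
Deposited intensity (linear scale from 0, arbitrary units) of the 8 haemoglobin and erythroid probe sets that passed the filter on low signal, by strain, with filled points for smoked and open points for control arrays. Each point is 1 array, and for Hbb-b2 the 2 C57 points (1816 and 1256) lie below the other 4 (2844 to 4081).

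Alas2 (probe set 92768_s_at, chromosome X), the erythroid enzyme of the first step of haem synthesis, read 412 on ICR smoked and 898 on ICR control, 536 on DBA smoked and 774 on DBA control, and 566 on C57 smoked and 377 on C57 control. The smoked array was lower in ICR and DBA and higher in C57. It ranked between 439 and 1854, which placed it above the median of its own array on all 6.

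Slc4a1 (101077_at, chromosome 11), the band 3 anion exchanger of the red cell membrane, read 33.9 on ICR smoked and 58.2 on ICR control, 59.9 on DBA smoked and 66.4 on DBA control, and 49.3 on C57 smoked and 36.6 on C57 control. Epor (103997_at, chromosome 9), the erythropoietin receptor, read 22.7 on ICR smoked and 46.2 on ICR control, 89.7 on DBA smoked and 68.3 on DBA control, and 44.7 on C57 smoked and 67.5 on C57 control. Each was above its array's median on only 2 arrays. Hba-ps3 (101703_at, chromosome 15), an alpha-globin pseudogene, read 109 on ICR smoked and 150 on ICR control, 161 on DBA smoked and 173 on DBA control, and 181 on C57 smoked and 179 on C57 control. As a copy of alpha-globin it may share probes with the coding genes, so its signal is uncertain.

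The other 6 probe sets were dim and did not pass the filter, which asked for a mean over the 40th percentile. Klf1 (100452_at, chromosome 8), the erythroid transcription factor that activates adult beta-globin, read 32.7 on ICR smoked and 13.6 on ICR control, 37.3 on DBA smoked and 38.9 on DBA control, and 31.6 on C57 smoked and 26.1 on C57 control. The embryonic genes, silent in adult red cells as known from development, were near the bottom of the scale. Hba-x (100549_at), the embryonic zeta-like alpha chain, ranged over 15.1 to 35.8, Hbb-bh1 (103533_at) over 6.0 to 17.2, and the Hbb-y probe sets over 11.7 to 25.0 (97180_f_at) and 3.21 to 12.6 (103535_at).

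A second probe set annotated to the same 4 adult beta-globin genes, 160560_at, read only 0.376 to 5.64 and was below the added constant of 8.05 on all 6 arrays. It disagrees with the beta-globin set, whose 6 values were 6652 or more. The files do not show which part of a transcript either probe set reads.

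**Figure D2:**
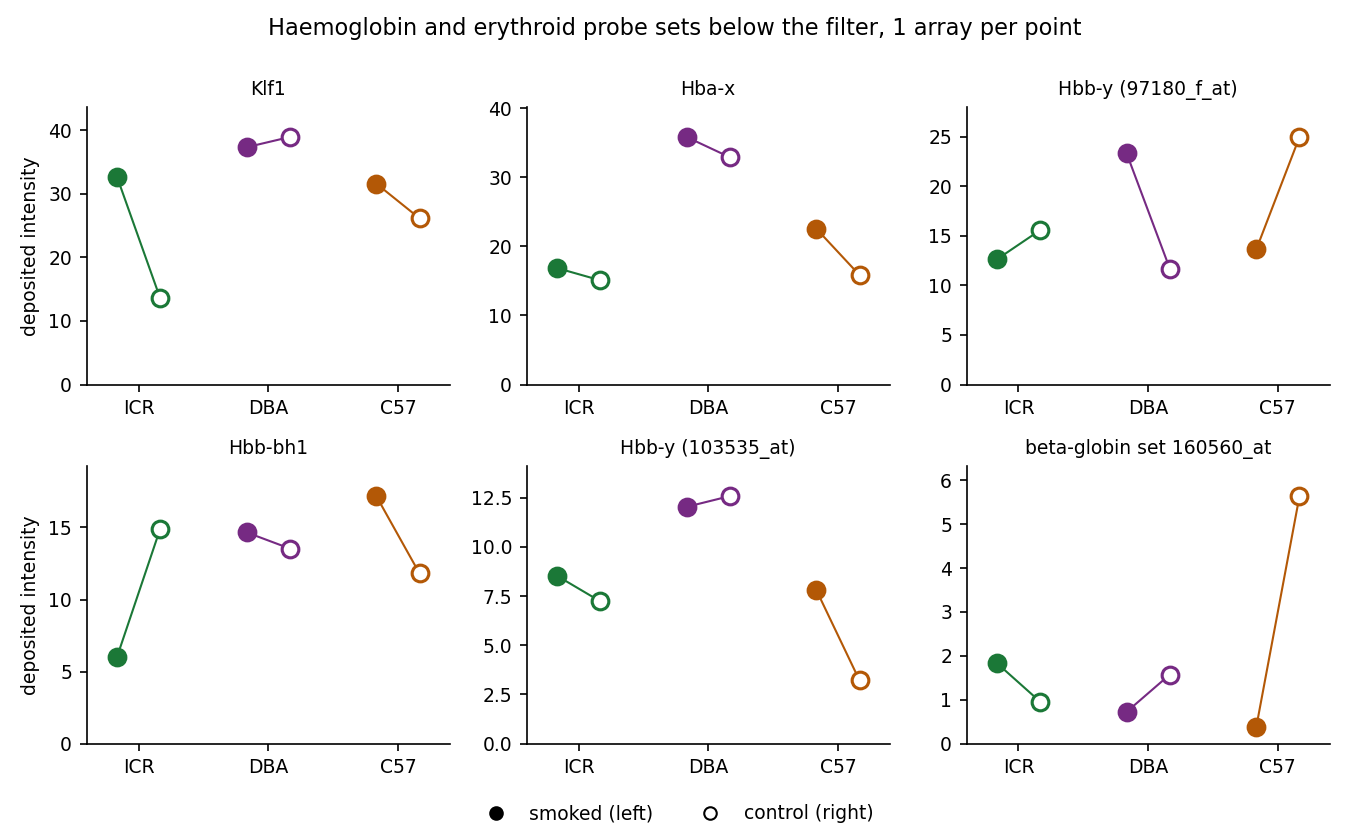
Deposited intensity (linear scale from 0, arbitrary units) of the 6 haemoglobin and erythroid probe sets below the filter, by strain, with filled points for smoked and open points for control arrays. Each point is 1 array, Klf1 reaches 38.9, and the beta-globin set 160560_at stays at 5.64 or less.

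Of the genes that mark red cells and their precursors, the adult globins and Alas2 were bright. Of the listed genes measured, 8 of 11 of the erythroid membrane and surface, 10 of 13 transcription factors and 14 of 17 red cell enzymes and late genes passed the filter, such as Aqp1, a water channel also made by lung vessels, at 687 to 2323, Ank1, red cell ankyrin, at 65.3 to 140, and Bpgm, bisphosphoglycerate mutase, at 185 to 535. Over all genes, each taken by its brightest probe set with 1 symbol, 5735 of 8251 passed. Passing alone is therefore no sign of red cells. Other listed genes did not pass. Gata1, the master factor of red cell development, read 6.21 to 40.7, Hemgn 1.47 to 14.6 and Epb42, a protein of the red cell skeleton, 1.28 to 8.41. Car1, the red cell carbonic anhydrase, read 2.53 to 5.40, and Rhag, the Rh-associated glycoprotein, 15.5 to 31.9. The lung label was borne out by Sftpc, the type II cell surfactant protein, at 7184 to 10579 and by Scgb1a1 of club cells at 7572 to 10324, but the probe set for Sftpd, another surfactant protein, read only 4.74 to 24.5.

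The arrays differed in overall signal. The median intensity was 25.9 on ICR smoked and 52.2 on ICR control, 84.8 on DBA smoked and 68.7 on DBA control, and 60.5 on C57 smoked and 60.1 on C57 control. The 3' to 5' ratio of beta-actin, a sign of RNA integrity, was 4.75 on ICR smoked and 1.63 on ICR control. It was 1.66 on DBA smoked and 1.46 on DBA control, and 2.51 on C57 smoked and 2.75 on C57 control. That of Gapdh was 2.39 and 1.11 in ICR, 0.95 and 0.97 in DBA, and 1.38 and 1.69 in C57, smoked before control. Both ratios were higher on both C57 arrays than on the DBA arrays and ICR control. Their part in the strain differences was not tested. Because overall signal differed, differences below are on the log2 scale after adding 8.05 and quantile normalization between arrays, which takes no account of these ratios.

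The first comparison asked whether smoke exposure changed these genes across the 3 strains. None of the 8 tested probe sets was called in limma's test with strain as a block (adjusted p below 0.05), where 0.0403% of all 7453 probe sets were called, 3 in number, and none of the 8 had an unadjusted p below 0.05. The beta-globin set differed by 0.07 (log2, smoked minus control, SE 0.13, 95% interval -0.22 to 0.35), Hba-a1 by 0.09 (SE 0.16, -0.27 to 0.45) and Hbb-b2 by 0.08 (SE 0.18, -0.32 to 0.48). The sizes depended on the scaling: relative to the median of all probe sets, without scaling, they were 0.27 (SE 0.26) for the beta-globin set, 0.21 (SE 0.27) for Hba-a1 and 0.19 (SE 0.34) for Hbb-b2, with no call. Alas2 differed by -0.15 (SE 0.26, -0.75 to 0.45), Slc4a1 by 0.06 (SE 0.25) and Epor by -0.15 (SE 0.24). Over the 8 probe sets the median difference was 0.06, against 0.01 over all probe sets tested.

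Within strains the pairs differed in direction. In C57, 7 of the 8 probe sets were higher and 1 lower on smoked, with a median of 0.31 against -0.01 over all probe sets. In DBA 1 was higher and 6 lower, with a median of -0.27 against 0.03, and the beta-globin set was level because it held the same rank on both arrays. In ICR 3 were higher and 5 lower, with a median of -0.04 against 0.01. None of these 8 reached 2-fold in any strain, where 6.48% of all probe sets tested did in ICR, 3.05% in DBA and 1.21% in C57. Each strain had 1 of these 8 past 1.5-fold, 162457_f_at in ICR and Alas2 in DBA and C57. The share of all probe sets tested that passed was 25.2% in ICR, 9.73% in DBA and 7.53% in C57. Among the dim probe sets below the filter, Klf1 was at 1.77 in ICR, -0.26 in DBA and 0.23 in C57.

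Alas2 showed the widest spread over the pairs, at -0.23 in ICR, -0.86 in DBA and 0.63 in C57. Hba-a1 was at -0.06 in ICR, -0.20 in DBA and 0.53 in C57, and Hbb-b2 at -0.09, -0.22 and 0.56 in the same order. These 3 probe sets shared 1 pattern, higher on C57 smoked and lower on ICR smoked and DBA smoked than on their controls, which 11.9% of all probe sets also had. Slc4a1 was at 0.22 in ICR, -0.39 in DBA and 0.35 in C57. The alpha-globin probe sets disagreed in ICR, where 162457_f_at was at 0.62.

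The direction in ICR depended on the scaling. With arrays scaled to a common median, the ICR difference relative to the median of all probe sets was 0.78 for the beta-globin set, 0.61 for Hba-a1 and 0.35 for Hbb-b2, all with the sign turned, and -0.24 for Alas2. Without any scaling the median probe set itself differed by -0.87 in ICR and 0.31 in DBA. In DBA the beta-globin set, level after quantile normalization, was at -0.41 relative to the median with a common median and without scaling, which makes 7 of 8 members lower, and Hba-a1 was at -0.58, against -0.23 after quantile normalization. In C57 and DBA the directions of Hba-a1, Hbb-b2 and Alas2 were the same under all 3 scalings.

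**Figure D3:**
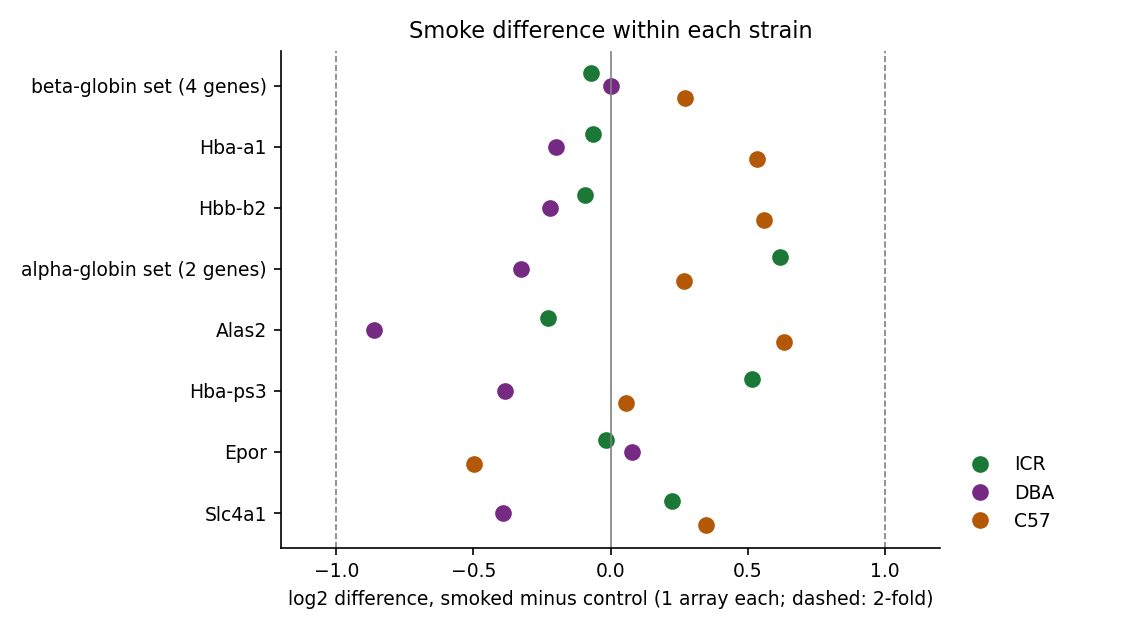
Smoked minus control difference (log2, after quantile normalization) of the 8 tested probe sets in ICR, DBA and C57, 1 array against 1 array, with dashed lines at 2-fold. The DBA point of Alas2 at -0.86 and the C57 point at 0.63 lie farthest apart, and no point passes a dashed line.

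Whether 1 strain responded differently from the other 2 was tested by giving that strain a smoke term of its own, with 1 residual degree of freedom left. None of the 8 probe sets was called in any of the 3 tests, where 0% of all probe sets were called for ICR, 0.711% for DBA and 0.134% for C57. At an unadjusted p below 0.05 the limma fits gave 0 of the 8 for ICR, where 1067 of all probe sets passed, 1 for DBA, where 294 passed, and 1 for C57, where 224 passed. Both times this was Alas2, with a difference of -1.07 for DBA (log2, SE 0.51, adjusted p = 0.9998) and 1.18 for C57 (SE 0.48, adjusted p = 0.9997).

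Markers of blood leukocytes and of other tissues also moved between the arrays of a pair. The summed deposited intensity of 13 neutrophil markers was 1904 on ICR smoked and 4864 on ICR control, 2084 on DBA smoked and 21632 on DBA control, and 3173 on C57 smoked and 2055 on C57 control. After normalization the median of the 10 tested was -0.22 in ICR, -3.15 in DBA and -0.03 in C57 (log2, smoked minus control). A response is the pair difference of 1 strain minus the mean of the other 2, and 7 of the 10 were called lower in that of DBA. Among them were the granulocyte proteins Ngp (-6.97) and S100a8 (-4.71). The pair differences of Ngp were -1.28 in ICR, -7.51 in DBA and 0.20 in C57. Those of S100a8 were -0.67, -5.05 and -0.01 in the same order. The rest were Camp (-5.21), S100a9 (-4.11), Mmp9 (-3.52), Chil3 (-3.15) and Lcn2 (-3.01). Lcn2 (2.87) and Chil3 (2.86) were called higher in the response of C57, where their pair differences were 1.36 and 1.38, against -2.55 and -2.63 in DBA. The sum of 10 liver markers was 144 and 267 in ICR, 4504 and 540 in DBA, and 107 and 344 in C57, smoked before control. Alb (6.62), Mup3 (6.49) and Serpina1b (2.05) were called higher in the response of DBA, with pair differences there of 5.48, 5.63 and 1.41. Alb was called lower in the response of C57 (-4.79), where its pair difference was -2.13. Some values lay below the added constant of 8.05, such as Mup3 at 3.51 on DBA control and Ngp at 6.42 on DBA smoked. The sizes of such differences rest in part on that constant. The part of these markers in the differences of Alas2 and the globins was not tested.

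The second set of comparisons asked how the strains differed over both exposures, with 2 arrays each. Hbb-b2 was higher in ICR and in DBA than in C57, and it was the only haemoglobin or erythroid probe set called. ICR exceeded C57 by 1.87 (log2, 3.65-fold, SE 0.22, 95% interval 1.37 to 2.36, limma adjusted p = 0.00377). DBA exceeded C57 by 1.29 (2.45-fold, SE 0.22, 0.80 to 1.79, adjusted p = 0.0189). Between ICR and DBA the difference was 0.57 (SE 0.22, 0.08 to 1.07, adjusted p = 0.256) and was not called. The 1 of 8 called against C57 stands beside 2.29% of all probe sets for ICR, 0.926% of them called higher, and 1.73% for DBA, 0.872% called higher, and the 0 of 8 between ICR and DBA beside 1.17%. At an unadjusted p below 0.05, limma gave 2 of the 8 for ICR against C57, where 18.0% of all probe sets passed, 1 for DBA against C57, where 11.5% passed, and 2 for ICR against DBA, where 15.6% passed.

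Hbb-b2 kept its direction in all 12 alternatives, but the ICR call against C57 was lost without ICR control (limma adjusted p = 0.120), without ICR smoked (0.0524) or without scaling (0.121), over a range of 2.8e-12 to 0.121. The DBA call was lost without C57 control (0.93, limma adjusted p = 0.141), ICR control (0.0643), ICR smoked (0.0663), the filter (0.0979), the scaling (0.0879) or the mean trend of the variance (0.0750), and with scaling to a common median (0.0817), over a range of 0.000158 to 0.141.

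**Figure D4:**
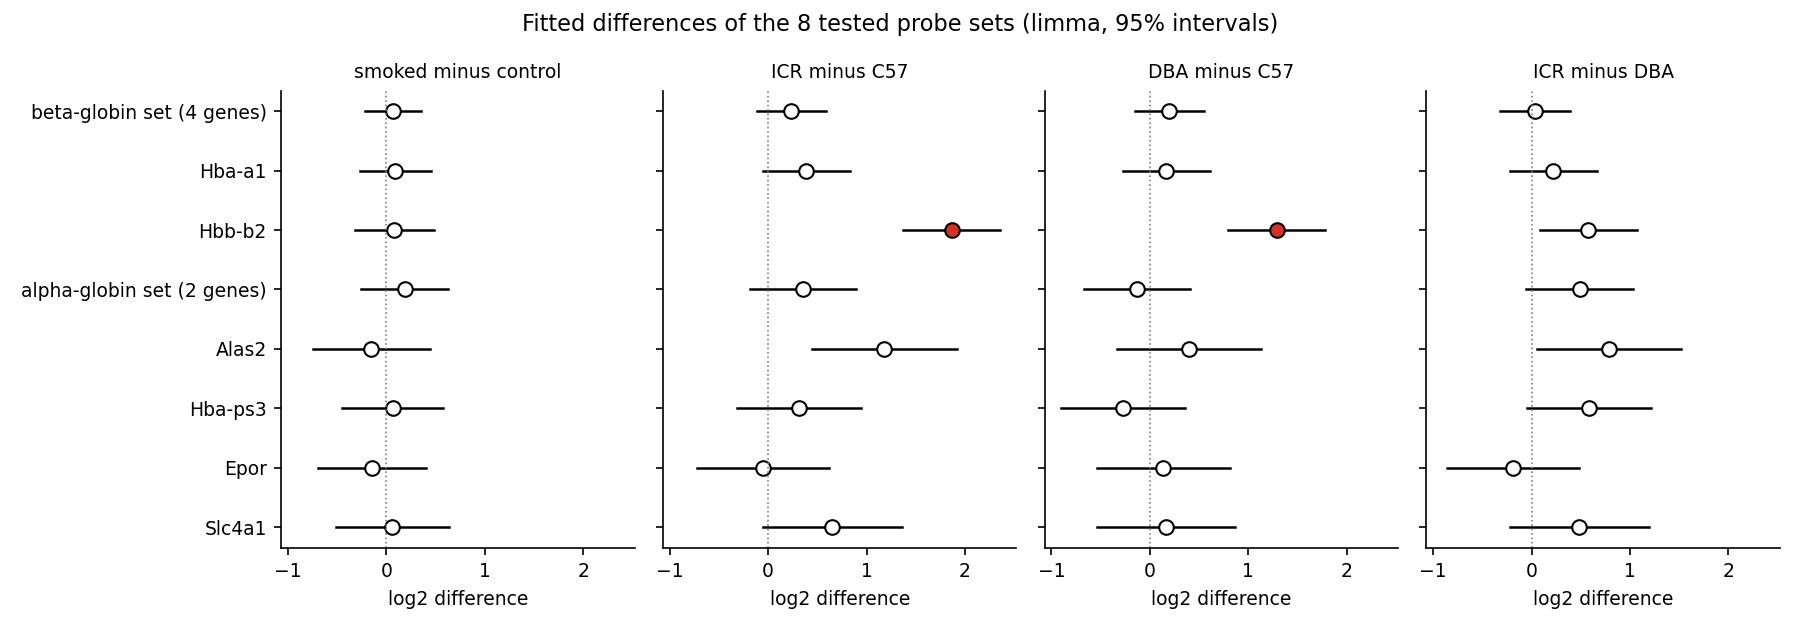
Fitted log2 differences of the 8 tested probe sets with 95% intervals from limma, for smoked minus control and for the 3 comparisons of strains, with red points where the adjusted p is below 0.05. Only Hbb-b2 is red, at 1.87 for ICR minus C57 and 1.29 for DBA minus C57.

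The other adult globin probe sets were not called between strains. The beta-globin set differed by 0.23 between ICR and C57 (log2, SE 0.16, adjusted p = 0.464) and by 0.20 between DBA and C57 (adjusted p = 0.724). Hba-a1 differed by 0.39 (SE 0.20, adjusted p = 0.339) and 0.17 (adjusted p = 0.845) in the same comparisons, and the 2-gene alpha-globin set by 0.36 (adjusted p = 0.471) and -0.13 (adjusted p = 0.915). Both comparisons share the C57 arrays.

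A check chosen after these values were seen set Hbb-b2 against other globin signal on the same array, in the deposited values before any normalization. Relative to the beta-globin set, Hbb-b2 signal was 40.3% on ICR smoked and 54.5% on ICR control, 41.7% on DBA smoked and 41.0% on DBA control, and 20.9% on C57 smoked and 18.9% on C57 control. Relative to Hba-a1 it was 46.6% and 55.7% in ICR, 50.9% and 44.7% in DBA, and 22.1% on both C57 arrays. The C57 arrays did not overlap with the ICR and DBA arrays in either ratio. Both ratios use the Hbb-b2 values already compared, so this is no separate evidence. How many other probe sets separate the arrays in this way was not counted. A percentage of this kind compares 2 probe sets and is no ratio of transcripts, so only its difference between arrays can be read. The beta-globin set and Hba-a1 lie near the top of the scale, where signal may be saturated, and this was not tested.

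**Figure D5:**
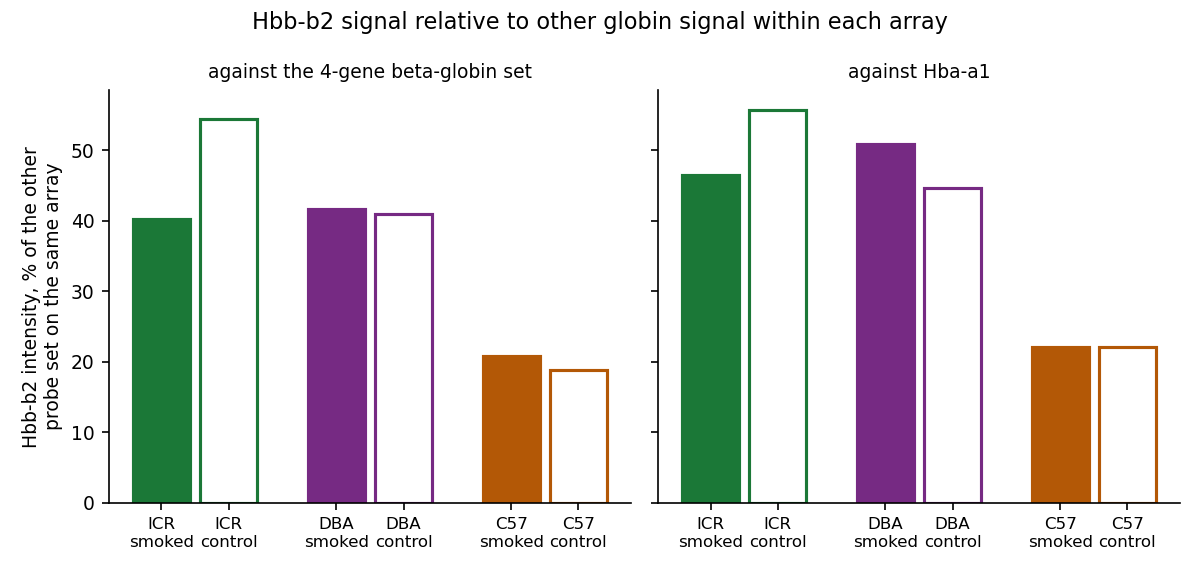
Hbb-b2 intensity as a percentage of the beta-globin set (left) and of Hba-a1 (right) on the same array, 1 bar per array, with filled bars for smoked and open bars for control. The C57 bars stand at 18.9 to 22.1% and the ICR and DBA bars at 40.3 to 55.7%.

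Alas2 was 1.18 higher in ICR than in C57 (log2, 2.27-fold, SE 0.32, 0.45 to 1.92, limma adjusted p = 0.104) and was not called. It passed without C57 smoked (1.77, adjusted p = 0.00307), DBA control (adjusted p = 0.00233) or DBA smoked (adjusted p = 0.00208), with a range of 0.00208 to 0.777 over 12 alternatives. The difference was 0.40 between DBA and C57 (adjusted p = 0.739) and 0.78 between ICR and DBA (adjusted p = 0.289), the last of which passed without DBA control (1.32, adjusted p = 0.0396, range 0.0396 to 0.903). Slc4a1 differed by 0.65 between ICR and C57 (SE 0.31, adjusted p = 0.313), Hba-ps3 by 0.31 (adjusted p = 0.593) and Epor by -0.05 (adjusted p = 0.946). Over the 8 probe sets the median difference was 0.37 between ICR and C57, against -0.02 over all probe sets, 0.17 between DBA and C57, against -0.03, and 0.49 between ICR and DBA, against 0.01.

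Skeletal muscle markers separated the same strains and the other way round. In the fit, all 8 tested were lower in ICR than in C57 and in DBA than in C57, and 5 of them were called in both. The called genes were Acta1, skeletal actin, at -6.10 in ICR and -3.84 in DBA, and Myh1 at -4.41 and -3.85. In the same order, Tnnc2 was at -3.16 and -2.95, Tnnt3 at -3.33 and -2.71, and Atp2a1 at -3.37 and -2.34. Between ICR and DBA only Acta1 was called (-2.26). The summed deposited intensity of the 10 measured was 221 and 333 in ICR, 696 and 1241 in DBA, and 4511 and 6363 in C57, smoked before control. Muscle marker signal and Hbb-b2 signal differed together between strains, and the part of one in the other was not tested. The ratio of Hbb-b2 to the beta-globin set, given above, uses the same Hbb-b2 values and is no separate evidence here.

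Other genes of red cell biology were taken as lists. None of their genes was called for the shared smoke effect or for any response. In haem synthesis, 1 of 7 tested was called. Alad, the enzyme that joins aminolevulinate into porphobilinogen, was higher in DBA than in C57 by 1.47 (log2, SE 0.23, adjusted p = 0.0128), reading 1268 and 898 on DBA smoked and control and 363 and 358 on C57 smoked and control. Among 10 erythroid transcription factors, Klf3, a Kruppel-like repressor that binds CACCC elements, was higher in DBA than in C57 by 1.60 (SE 0.30, adjusted p = 0.0315).

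Among 8 genes of the erythroid membrane and surface, Cd59a, which shields red cells from complement, was higher in ICR than in C57 by 2.0 (log2, SE 0.24, adjusted p = 0.00407) and than in DBA by 1.57 (adjusted p = 0.0173). It read 259 and 392 in ICR, 225 and 185 in DBA, and 124 and 136 in C57, smoked before control. Slc2a1, the glucose transporter GLUT1, was lower in ICR than in C57 (-1.45 on the log2 scale, adjusted p = 0.0355), and so was Cd24a, a surface glycoprotein of immature blood cells and epithelium (-0.95, adjusted p = 0.0455). Of 14 red cell enzymes and late erythroid genes, Tent5c was higher in ICR than in DBA by 1.30 (SE 0.23, adjusted p = 0.0374). Mb, the muscle globin, was lower in ICR than in C57 (-1.40, SE 0.29, adjusted p = 0.0455), as were the skeletal muscle genes above.

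No gene was called among the 7 tested for haem and haemoglobin clearance or the 10 for iron uptake and the erythropoietin signal. Hmox1, the haem oxygenase, differed between smoked and control by -0.28 in ICR and 0.35 in C57, the lowest and the highest of the tested clearance genes in those pairs. The other extremes among the tested were Slc11a2 at 0.26 in ICR, Slc11a2 at 0.43 and Slc11a1 at -0.54 in DBA, and Blvra, biliverdin reductase, at -0.23 in C57. Hpx, the haem-binding haemopexin, is on both the clearance and the liver list and was too dim to test, at 0.45 in ICR, 2.69 in DBA and -0.46 in C57. Among tested genes of the iron and erythropoietin list the extremes were Pim1 at 0.64 and Stat5b at -0.70 in ICR, Kitl at 0.34 and Tfrc, the transferrin receptor, at -0.89 in DBA, and Stat5b at 0.85 and Bcl2l1 at -0.66 in C57. The untested Tfr2 was at 0.87 in ICR. None of these single-pair differences has a replicate check.

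Markers of other cells of the blood and vessel wall gave no call in any comparison for platelets (3 tested), B cells (7), T cells (2) or endothelium (8). The platelet sum of deposited intensity was 626 on ICR smoked and 1040 on ICR control, 1600 on DBA smoked and 1681 on DBA control, and 1929 on C57 smoked and 1872 on C57 control. Vwf, which is also on the endothelial list, made up most of each sum. It read 563 and 899 in ICR, 1342 and 1428 in DBA, and 1688 and 1657 in C57, smoked before control. Pf4, at 2.78 to 18.1, and Gp5, at 5.03 to 24.1, did not pass the filter. After normalization the median of the tested platelet markers was 0.12 in ICR, -0.36 in DBA and 0.27 in C57, with extremes of Vwf at 0.22 and Gp9 at -0.37, Gp9 at -0.08 and Gp1bb at -1.0, and Gp1bb at 0.31 and Vwf at 0.09. B cell markers had medians of 0.17, -0.69 and 0.45 in the same order of strains. Their extremes were Blk at 0.48 and Pou2af1 at -0.25 in ICR, Cd22 at 0.26 and Ighm at -1.43 in DBA, and Ms4a1 at 1.03 and Blk at -0.29 in C57. The T cell markers tested were Cd4 at 0.83, -0.39 and -0.23 and Thy1 at 0.75, -1.23 and -0.41 in ICR, DBA and C57. Endothelial markers had medians near 0 in ICR and at -0.02 in DBA and 0.22 in C57, with extremes of Tie1 at 0.45 and Emcn at -0.32, Kdr at 0.44 and Vwf at -0.36, and Kdr at 0.47 and Cdh5 at -0.25. Of 5 lung epithelial markers, Sftpb was lower in ICR than in C57 (-1.0, SE 0.19, adjusted p = 0.0348). Of 3 liver markers tested, Serpina1b was higher in DBA than in C57 (3.65, SE 0.53, limma adjusted p = 0.00997).

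The genes whose profile over the 6 arrays was most like the mean of the 4 adult globin probe sets were Dpep1, Lyz2, Litaf, Ubxn4 and Nab1. Likeness is the root mean square difference of centred log2 values over the 6 arrays, and it was 0.083 for Dpep1, 0.091 for Lyz2, 0.102 for Litaf, 0.108 for Ubxn4 and 0.118 for Nab1, of 5729 genes compared. The globin mean itself was 0.40 on ICR smoked and 0.30 on ICR control, -0.08 on DBA smoked and 0.11 on DBA control, and -0.16 on C57 smoked and -0.57 on C57 control, relative to its average. Slc4a1 lay at 0.116, with 0.0698% of genes closer, Alas2 at 0.314, with 19.5% closer, and Hba-ps3 at 0.318, with 20.2% closer. Epor lay at 0.421, with 50.0% of genes closer. The arrays share their normalization and overall signal, so a like profile over so few arrays is a description only.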

How the data were processed

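The deposited values are probe set intensity on a linear scale, and per the labels' protocols they come from Trizol lung RNA, oligo(dT)-T7 priming and biotin-labelled cRNA. No label, header or note read here names the summary method or software. Values were turned into log2 (value + 8.05, the 20th percentile), quantile normalized over 12488 probe sets, 66 control probe sets were left out, and 7453 with means over the 40th percentile stayed in. Array medians of log2 (value + 8.05) spread over 1.45 before normalization. The model was limma's (version 3.58.1, under R 4.3.3), with trended eBayes. Strain was the block for smoke, exposure a term for strains, and each response a term of its own. Tests are 2-sided, Benjamini-Hochberg adjusted over all 7453, and called below 0.05. Fold changes are on the log2(value + 8.05) scale and understate low genes. The scripts were tested on simulated data.

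The probe sets and lists were chosen with earlier results of these data known. Every probe set of the rule is named, each called gene of a list, otherwise the extremes of each pair, and the 5 genes nearest in profile. Platform annotation gave gene names and RefSeq (GRCm38.p6) gave chromosomes and promoters. Figures were drawn with matplotlib 3.10.9. The number of arrays limits the precision.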

Additional observations from a re-analysis of the deposited data

How the results depend on the processing

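Alternatives were a constant of 32, no filter or the 60th percentile, no scaling or a common median, a prior without the mean trend, no strain block, the spread of the smoke fit for responses, a 1.5-fold threshold, and each pair or array left out. Hbb-b2 kept its direction in all 12 alternatives, from 1.51 to 2.23 for ICR against C57 (called in 9) and from 0.93 to 1.65 for DBA against C57 (called in 5). Without scaling and with a common median, the sizes in these ranges are relative to the median of all probe sets. The cause of each lost call was not tested, except that leaving out an array leaves fewer samples. For DBA against C57, 0 of 8 members were called without the filter, without scaling, with a common median and without the mean trend. For ICR against C57, 0 were called without scaling. There Hbb-b2 was at 1.90 relative to the median of all probe sets, which itself differed by -0.73, so its plain difference was smaller. With 1 array left out, members called ranged from 0 to 2 for ICR against C57, from 0 to 1 for DBA against C57 and from 0 to 1 for ICR against DBA. At 1.5-fold, 1 of the 8 tested members passed in each strain. Without scaling, Alas2 passed 2-fold in ICR at -1.11, or -0.24 relative to the median of all probe sets, so 1 member was counted. No smoke call appeared among the members in any alternative.

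Signs of uncalled values turned as follows. With no scaling and with a common median, ICR response values relative to the median of all probe sets were 0.76 and 0.74 for the beta-globin set, 0.24 and 0.22 for Hbb-b2, and 0.59 and 0.57 for Hba-a1. Epor in ICR against C57 was 0.10 under both, and Hba-ps3 in the C57 response 0.041 without scaling. With 1 pair left out, the shared smoke effect ranged from -0.083 to 0.29 for Slc4a1, -0.16 to 0.29 for Hba-ps3, -0.036 to 0.14 for the beta-globin set, -0.16 to 0.23 for Hbb-b2, -0.26 to 0.031 for Epor, -0.030 to 0.44 for the 2-gene alpha-globin set, -0.55 to 0.20 for Alas2 and -0.13 to 0.24 for Hba-a1. With 1 array left out, DBA against C57 ranged from -0.17 to 0.50 for Slc4a1, -0.61 to 0.061 for Hba-ps3, -0.13 to 0.40 for Epor, -0.52 to 0.25 for the alpha-globin set, -0.19 to 0.99 for Alas2 and -0.17 to 0.50 for Hba-a1. ICR against C57 ranged from -0.026 to 0.66 for Hba-ps3 and -0.32 to 0.21 for Epor, and ICR against DBA from -0.068 to 0.14 for the beta-globin set.

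Over the alternatives, calls among all probe sets ranged from 0 to 11 for smoke, 66 to 298 for DBA against C57, 32 to 517 for ICR against C57, 12 to 261 for ICR against DBA, 0 to 13 for the C57 response, 0 to 64 for the DBA response and 0 to 1787 for the ICR response. No paired analysis was possible because each group has 1 array, apart from the strain block already in the smoke fit. Probe sets near the constant of 8.05, such as the embryonic globins, have too little signal over background to order their arrays.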
